A study of Mus musculus with 6 samples.

Results

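The carbonic anhydrase genes Car1, Car2, Car3, Car4, Car7, Car8, Car12 and Car13 were followed through 6 libraries of mouse large intestine. These 8 genes were taken by symbol from a table of 35434 genes, and all 8 were present. The mice were described as having inflammatory bowel disease and had received a transfer of regulatory T cells, which were either control cells or cells treated with lenvatinib, an inhibitor of several receptor tyrosine kinases. The libraries are titled int 2 and int 3, with 3 replicates each, and no label ties either number to a kind of transfer. Strain, sex, age, the way the disease was induced and the time after transfer are not given in the sources used here. Every difference is therefore int 3 minus int 2, with no treatment attached, and separate animals are not stated for the replicates, so a p-value covers no more than the spread among the libraries at hand. Values of a group are given in the order of its replicates, 1 to 3.

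Carbonic anhydrases are zinc enzymes that interconvert carbon dioxide and water with bicarbonate and a proton. In the colonic epithelium they supply both ions to the exchangers that absorb sodium and chloride and secrete bicarbonate into the lumen. Members differ in where they act. Car1, Car2, Car3, Car7 and Car13 are cytosolic, Car4 is tethered to the outer face of the cell membrane by a lipid anchor, Car12 crosses the membrane with its active site outside, and Car8 is a related protein without catalytic activity.

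Depth was even, with 34.02 to 35.06 times 1e6 fragments in each library, as recovered from the steps in FPKM, a level per gene length and library size (fragments per kilobase of gene, scaled to 1e6 fragments). The int 2 libraries lay close together and the int 3 libraries far apart. Hoxb13, which marks the distal colon, had 288, 285 and 288 FPKM in int 2 and 146, 16.4 and 267 FPKM in int 3. Pan-epithelial transcripts were abundant throughout, with summed FPKM of 10 genes between 5091 and 5130 in int 2 and between 4545 and 5755 in int 3, and 0 of the 10 passed the test (1 rose and 1 fell without int 3-3). Genes that reached 1 FPKM in 3 or more libraries were tested with limma on log2(FPKM + 1), and adjusted p-values are Benjamini-Hochberg values over all 12525 tested genes. The test takes the spread of a gene as equal in both groups. Its p-values rest on this, although the int 3 libraries lay further apart than those of int 2. Of the 8 carbonic anhydrases 7 were tested, and Car7 was below the filter.

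Car2 fell and Car13 rose in int 3, and the other 5 tested members did not pass. In each of these 5 the int 3 libraries lay on both sides of int 2. At the threshold of 0.05, 15.3% of all tested genes changed, 8.64% higher and 6.7% lower, and nothing particular to the family is read from 2 of 7. Of these calls 56.3% were higher, against 67.7% of 1883 after rescaling to TPM, which moved the median log2 change of all tested genes from 0.034 to 0.101. With median-of-ratios scaling 51.4% were higher, and with quantile normalization 48.5%, so that lower calls outnumbered higher ones. Groups that did not overlap were seen for these same 2 members and for 40.4% of all tested genes, 22.4% with int 3 higher and 17.9% with int 3 lower. In bulk tissue, fewer cells of a type and less RNA per cell cannot be told apart.

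**Figure D1:**
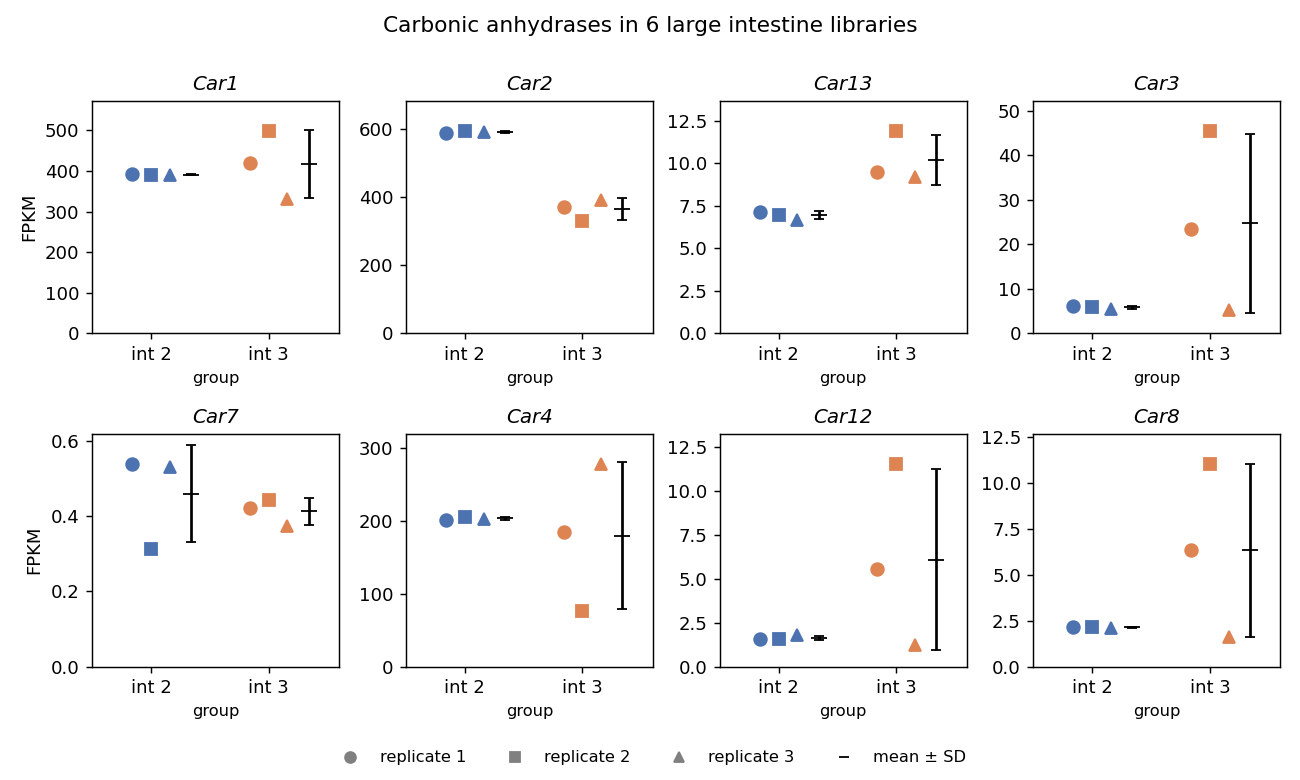
FPKM of the 8 carbonic anhydrases (vertical axis, linear, from 0) in int 2 (blue) and int 3 (orange), where each symbol is a library and the bar is the mean ± SD of 3 libraries. Car2 was lower and Car13 higher in all 3 int 3 libraries, whereas Car3, Car8 and Car12 were high in int 3-1 and int 3-2 and at or below the int 2 level in int 3-3.

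Levels spanned a wide range. In int 2 the order of mean FPKM was Car2 at 591, Car1 at 390, Car4 at 204, Car13 at 6.93, Car3 at 5.82, Car8 at 2.14, Car12 at 1.64 and Car7 at 0.459. The 3 libraries of each member did not overlap those of its neighbours in this order. In int 3 Car1 and Car2 overlapped, as did Car13, Car3, Car8 and Car12 with each other, and Car4 stayed below Car2 in every library.

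Car2, the cytosolic isoform of high catalytic activity, was the most abundant member in int 2. It had 589, 594 and 590 FPKM in int 2 and 371, 328 and 391 FPKM in int 3. The lowest int 2 value lay far above the highest int 3 value. On the linear scale the int 3 mean was 0.615 of the int 2 mean, 363 ± 32.4 against 591 ± 2.47 FPKM (SD, n = 3 libraries each). The log2 change was -0.70 (SE 0.08, limma adjusted p = 0.00296). Car2 passed in all 17 alternatives run, with log2 changes from -0.76 to -0.60 and adjusted p from 0.00054 to 0.0275. Scaled to the pan-epithelial genes of each library, the log2 change was also -0.70 (limma adjusted p = 0.00348). Genes of red blood cells, which also make Car2 and Car1, had summed FPKM of 79.4 to 90.7 in int 2 and 93.1 to 112 in int 3, and 0 of 4 tested passed (2 rose without int 3-3). Their part in the Car2 result was not tested.

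Car1, a cytosolic isoform abundant in colonic epithelium and in red blood cells, did not follow Car2. Its values were 392, 391 and 389 FPKM in int 2 and 420, 499 and 331 FPKM in int 3. Int 3-1 and int 3-2 lay above int 2 and int 3-3 below it. The log2 change was 0.07 (SE 0.14, limma adjusted p = 0.754), and without int 3-2 it was -0.07 (adjusted p = 0.671).

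The ratio of these abundant cytosolic genes was higher in every int 3 library, although the design cannot reach 0.05. The ratio of Car1 to Car2 FPKM was 0.665, 0.659 and 0.658 in int 2 and 1.13, 1.52 and 0.846 in int 3. This is the most extreme arrangement that 3 against 3 libraries allow (exact permutation test, two-sided, p = 0.1, the smallest possible). Such a ratio within a library does not depend on the scaling between libraries.

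Car13, a cytosolic isoform of the gut, rose from a low level. Its FPKM was 7.14, 6.97 and 6.68 in int 2 and 9.5, 11.9 and 9.16 in int 3. All 3 int 3 libraries stood above int 2, and the linear ratio of the means was 1.47. The log2 change was 0.49 (SE 0.10, limma adjusted p = 0.0251). The call was lost without int 2-1, int 2-2, int 2-3 or int 3-1 (adjusted p = 0.0949, 0.103, 0.111 and 0.0775), without a filter (0.0514) and with the replicate number as a block (0.0577).

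Car3, a cytosolic isoform of low activity that is abundant in fat and skeletal muscle, varied more within int 3 than between the groups. It had 6.11, 5.97 and 5.39 FPKM in int 2 and 23.5, 45.5 and 5.29 FPKM in int 3. Int 3-2 carried 7.81 times the int 2 mean and int 3-1 carried 4.04 times, while int 3-3 was at 0.908 times. The log2 change of 1.5 did not pass (SE 0.68, limma adjusted p = 0.186). Without int 3-3 it was 2.31 (adjusted p = 0.0018), and without int 3-2 it was 0.87 (adjusted p = 0.28).

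The summed fat transcripts lay in the same order as Car3 across the int 3 libraries, an order shared by 49.6% of all tested genes. Pnpla2 and Lep, named after their values were seen, had other orders. Pnpla2 had 39.3, 38 and 43.4 FPKM in int 3, and Lep was at most 0.162 FPKM. The 10 listed adipocyte genes had summed FPKM of 92.1 to 94.9 in int 2 and of 198, 278 and 134 in int 3. Of these, 2 of 7 tested rose (8.64% of all tested genes did). These were Fabp4, a fatty acid carrier of fat cells and macrophages (log2 change 1.18, limma adjusted p = 0.0152), and the lipase gene Lipe (0.53, adjusted p = 0.0349). The count was 0 without int 2-1, int 2-2, int 2-3 or int 3-1, 3 without int 3-2 and 6 without int 3-3. Adipoq, a hormone made by fat cells and chosen here after its values were seen, had 1.35, 0.99 and 1.26 FPKM in int 2 and 5.87, 11.5 and 1.34 FPKM in int 3. Skeletal muscle genes had summed FPKM of 18.8 to 20.5 in int 2 and 19.3 to 22.9 in int 3. Of 3 tested, 1 rose, the actin Acta1. Ckm, at 13.3 to 16.0 FPKM in all libraries, made up most of each sum and did not pass. Mylpf had means of 1.97 FPKM in int 2 and 1.23 FPKM in int 3 and did not pass. Myh2 and Actn3, below the filter, were lower in every int 3 library. Their means were 0.144 and 0.232 FPKM in int 2 and 0.0348 and 0.0809 FPKM in int 3. The fast fibre myosin Myh4 was at most 0.00487 FPKM in any library. The part of fat and muscle in the Car3 values was not tested.

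Car4 and Car12, the membrane-bound members, lay in opposite orders over the int 3 libraries. Car4 had 202, 206 and 203 FPKM in int 2 and 185, 76.4 and 278 FPKM in int 3. Int 3-2 was thus far below int 2 and int 3-3 above it, with the int 3-3 value 3.64 times the int 3-2 value. The log2 change of -0.37 did not pass (SE 0.44, limma adjusted p = 0.593), and it was 0.15 without int 3-2 (adjusted p = 0.529).

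Car12 had 1.55, 1.58 and 1.78 FPKM in int 2 and 5.55, 11.5 and 1.2 FPKM in int 3. Here int 3-2 was the highest library, 9.59 times int 3-3, and int 3-3 lay below all of int 2. The log2 change of 1.10 did not pass (SE 0.59, limma adjusted p = 0.247). Without int 3-3 it was 1.78 (adjusted p = 0.00428), and without int 3-2 it was 0.53 (adjusted p = 0.41). The ratio of Car4 to Car12 FPKM, 114 to 131 in int 2, was 33.3, 6.64 and 232 in int 3.

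The promoter sequences of these membrane-bound members are shown because their values lay in opposite orders over the int 3 libraries. RefSeq promoters (build GRCm38.p6) were at hand for 3 of the 8 members, Car4, Car7 and Car12. Each line gives the 250 bases before the start site, 5′ to 3′, on the plus strand, at chr11:84957504-84957753 for Car4 and chr9:66713436-66713685 for Car12. Capitals mark the GC box GGGCGG on either strand.
Car4, upstream of the RefSeq start site: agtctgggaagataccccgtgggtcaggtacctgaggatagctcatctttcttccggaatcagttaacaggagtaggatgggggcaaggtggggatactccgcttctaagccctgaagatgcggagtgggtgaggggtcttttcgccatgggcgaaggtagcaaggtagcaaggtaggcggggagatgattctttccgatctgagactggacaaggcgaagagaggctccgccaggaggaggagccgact
Car12, upstream of the RefSeq start site: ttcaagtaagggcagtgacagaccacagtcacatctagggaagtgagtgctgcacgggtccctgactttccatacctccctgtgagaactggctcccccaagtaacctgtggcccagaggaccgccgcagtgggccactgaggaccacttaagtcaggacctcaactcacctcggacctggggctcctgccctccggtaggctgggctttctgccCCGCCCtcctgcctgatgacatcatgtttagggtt
The GC box occurred 1 time in the Car12 window, starting 35 bases before the start site, and 0 times in the Car4 window. It was found in 32.9% of 27025 promoters of this length and was added to the search after the letters had been seen. The caudal homeobox core TTTAT, held by 38.1% of promoters, occurred 0 times in either window. The same was true of the hypoxia response core ACGTG, held by 16.6%, and of the AP-1 motif TGANTCA, held by 6.87%. All were searched on both strands, and none of them contains another. No binding was measured in these samples.

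Car8, which binds the inositol trisphosphate receptor of the endoplasmic reticulum and has lost the catalytic residues, ran with Car12. It had 2.13, 2.16 and 2.12 FPKM in int 2 and 6.35, 11 and 1.62 FPKM in int 3. Int 3-2 carried 5.17 times the int 2 mean and int 3-3 carried 0.759 times. The log2 change was 0.97 (SE 0.52, limma adjusted p = 0.248), without int 3-3 it was 1.59 (adjusted p = 0.0027), and without int 3-2 it was 0.48 (adjusted p = 0.42).

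Car7, a cytosolic isoform best known from neurons, was barely detected. Its FPKM was 0.537, 0.311 and 0.529 in int 2 and 0.422, 0.443 and 0.372 in int 3, which correspond to 32 to 55 fragments per library. The groups overlapped. Counting error alone gave 95% Poisson intervals of 0.213 to 0.439 FPKM for int 2-2 and of 0.405 to 0.699 FPKM for int 2-1.

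**Figure D2:**
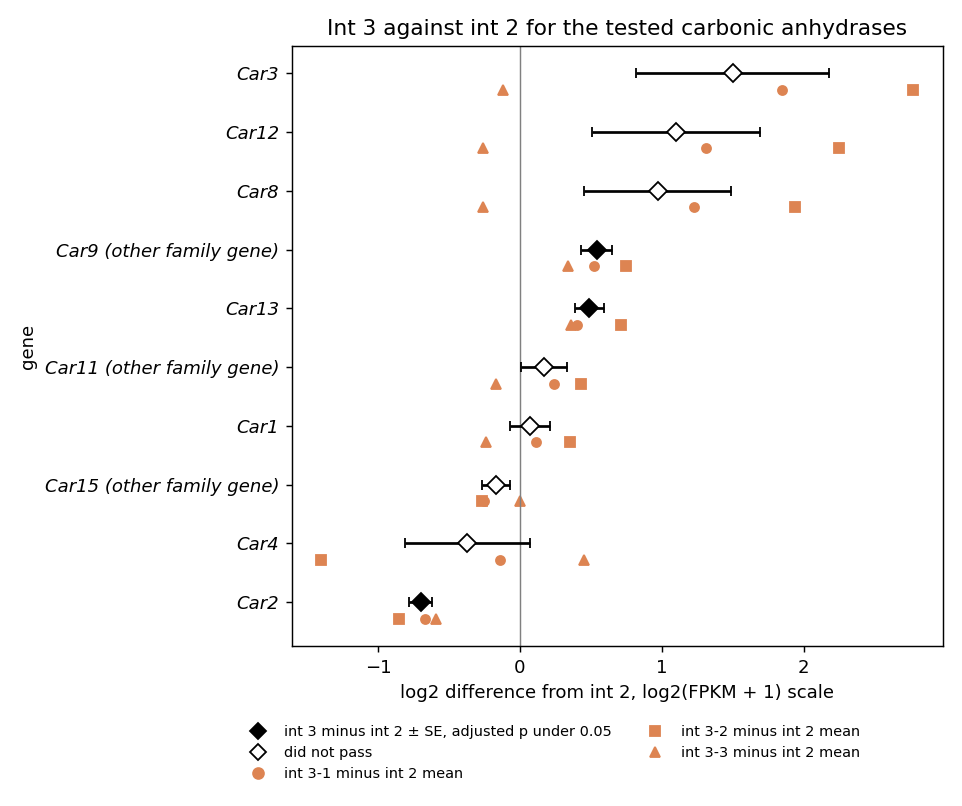
Log2 difference from int 2 on the log2(FPKM + 1) scale for the 7 tested members and 3 other family genes. Diamonds are int 3 minus int 2 ± SE, filled where limma's adjusted p was under 0.05, and orange symbols are single int 3 libraries. Car2 at -0.70 and Car13 at 0.49 had narrow errors, while Car3, Car8 and Car12 had a wide spread with int 3-3 below zero.

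The members thus had opposite orders within int 3. Car1, Car3, Car8, Car12 and Car13 were highest in int 3-2 and lowest in int 3-3, and Car2 and Car4 were highest in int 3-3 and lowest in int 3-2. Among all tested genes 49.6% had the former order and 23.9% the latter, so these orders are common in the series. Differences over 2-fold in FPKM + 1 between int 3-2 and int 3-3 were less common, at 4.56% of tested genes. They were seen for Car3, Car4, Car8 and Car12. Low genes can differ over 2-fold in FPKM itself and not be counted here, as did Car11, with 2.13 times as much in int 3-2.

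For these 4 members int 3-1 lay near the middle. On the linear scale it had covered 45.4%, 46.1%, 50.1% and 42.3% of the way from int 3-3 to int 3-2 for Car3, Car4, Car8 and Car12. The median over the 571 tested genes over 2-fold apart in FPKM + 1 was 47.7%. Hoxb13 had the order of Car4. The 6 distal homeobox genes had summed FPKM of 309 to 313 in int 2 and of 175, 27.1 and 312 in int 3, and 0 of 4 tested passed (1 rose without int 3-2). Hoxb13 made up most of each sum. In int 3 Hoxa13 had 12.1, 10.1 and 15.3 FPKM and Hoxd13 14.2, 0.286 and 26.4 FPKM. Their int 2 means were 11.3 and 10.3 FPKM. The part of the distal homeobox genes in the values of the members was not tested.

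**Figure D3:**
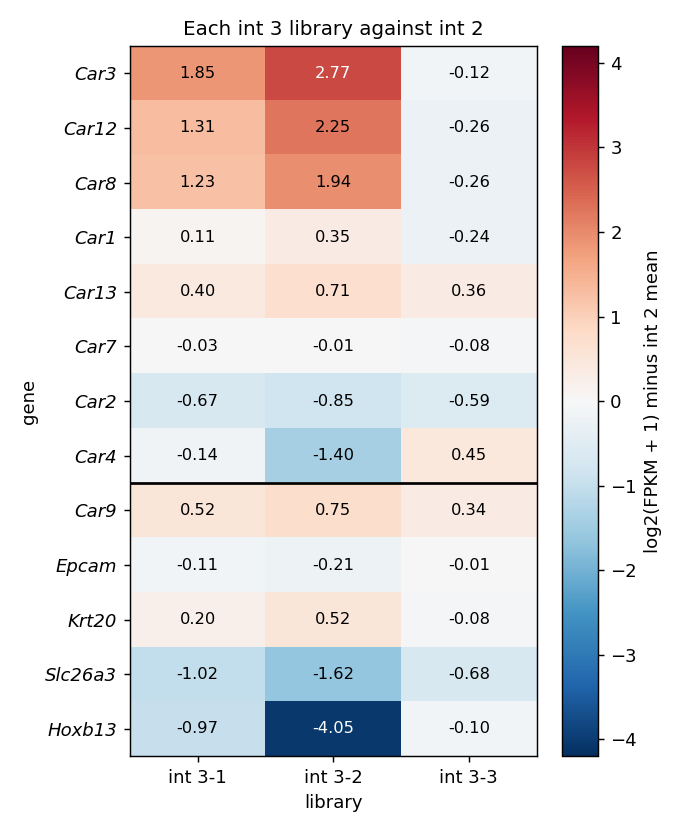
Log2(FPKM + 1) of each int 3 library minus the int 2 mean (red higher, blue lower), for the 8 carbonic anhydrases above the line and Car9, Epcam, Krt20, Slc26a3 and Hoxb13 below it. The int 3-2 column holds the extreme values, from 2.77 for Car3 to -1.40 for Car4 among the members and -4.05 for Hoxb13.

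Within int 2 the members varied little more than the counting of fragments. Their chi-square per degree of freedom against such counting ranged from 0.0484 for Car8 to 3.69 for Car7, where counting alone gives values near 1. In int 3 it ranged from 0.328 for Car7 to 3160 for Car4. Differences among the int 3 libraries were therefore far above counting error for every member but Car7. The int 2 libraries showed little spread beyond counting. Among genes over 2-fold apart, int 3-1 lay at a median of 47.7% of the way from int 3-3 to int 3-2. Neither the limma nor the permutation p-values can therefore be taken to measure differences between animals, which no label separates.

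The summed FPKM of the 8 members was 1200, 1208 and 1198 in int 2 and 1021, 984 and 1017 in int 3. The sum was thus lower and nearly level in int 3, at 1007 ± 20.7 against 1202 ± 5.25 FPKM (SD, n = 3 libraries each; exact permutation test, two-sided, p = 0.1, the smallest possible). Its make-up was not level. Car2 held 49.1% to 49.3% of the sum in int 2 and 36.3%, 33.3% and 38.4% in int 3. Car4 held 16.8% to 17.1% in int 2 and 18.1%, 7.76% and 27.3% in the same int 3 libraries. Together the 5 scarce members took 1.38% to 1.45% in int 2 and up to 8.17% in int 3-2.

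**Figure D4:**
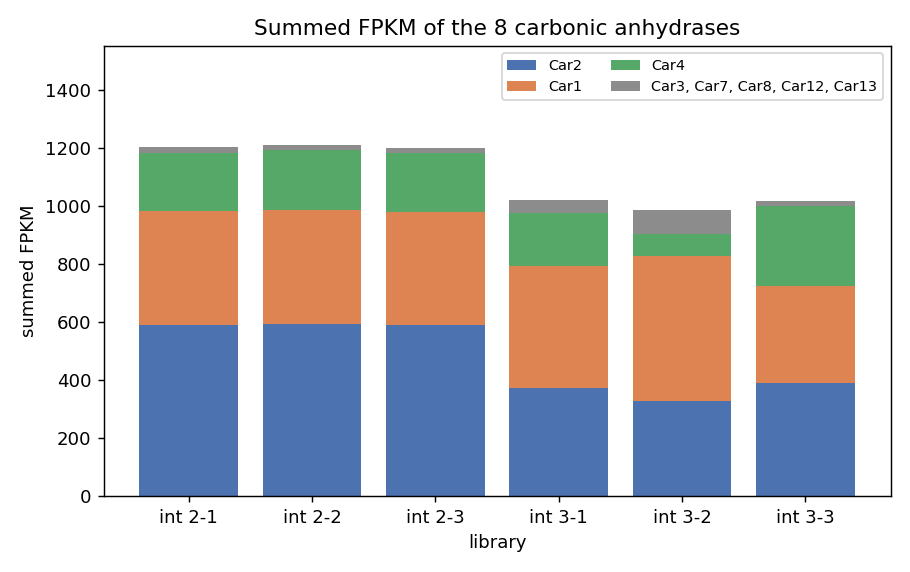
Summed FPKM of the 8 members in each library, stacked as Car2, Car1, Car4 and the 5 scarce members. Totals were 1198 to 1208 FPKM in int 2 and 984 to 1021 FPKM in int 3, with a thinner Car2 layer in all int 3 libraries and a thin Car4 layer in int 3-2.

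Of the 8 other family genes looked up, Car5a, Car5b, Car6, Car9, Car10, Car11, Car14 and Car15, 3 were tested and 1 rose. The share that rose among all tested genes was 8.64%. Car9, a transmembrane isoform and a known hypoxia target, had 16.2, 16.6 and 15.6 FPKM in int 2 and 23.5, 27.9 and 20.7 FPKM in int 3. It was above int 2 in all 3 int 3 libraries (log2 change 0.54, SE 0.11, limma adjusted p = 0.0213), and the call was lost without int 2-1, int 2-2, int 2-3 or int 3-1 (adjusted p = 0.093, 0.0871, 0.1 and 0.088). Car11, a secreted relative without activity, and Car15, a membrane-anchored isoform, did not pass (log2 change 0.17 and -0.17, limma adjusted p = 0.489 and 0.305). The Car11 change was 0.04 without int 3-2 and 0.34 without int 3-3, where it passed (adjusted p = 0.0278). Car5a, Car6 and Car10 were at most 0.130 FPKM in any library. The mitochondrial Car5b was at 0.696 to 1.24 FPKM and the transmembrane Car14 at 0.363 to 0.599 FPKM.

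Among 10 tested hypoxia response genes, a list that includes Car9, 7 rose and 0 fell, while 8.64% of all tested genes rose. The list was chosen with earlier results of these data known. The count that rose was 2 without int 2-1, int 2-2, int 2-3 or int 3-1, 8 without int 3-2 and 9 without int 3-3. It was 4 with the replicate block and 6 with median-of-ratios scaling. A count of 5 was found without a filter, with a minimum mean of 5 FPKM and with quantile normalization. The smallest adjusted p-values were those of Bnip3, a mitochondrial mitophagy receptor (log2 change 1.12, limma adjusted p = 0.000172), Egln3, an oxygen-sensing hydroxylase (0.74, adjusted p = 0.00556), and Adm, the peptide adrenomedullin (0.63, adjusted p = 0.0126). The list's median log2 change was 0.48 against 0.034 over all tested genes.

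The exchangers and channels that use the ions made by carbonic anhydrases changed in both directions. Of 15 tested genes of bicarbonate and proton transport 4 fell, 2 rose and 9 did not pass, with a median log2 change of -0.36. Over all tested genes 6.7% fell and 8.64% rose. Without int 2-1, int 2-2, int 2-3 or int 3-1, 0 of the 15 passed in either direction. Without int 3-2, 6 fell, and without int 3-3, 8 fell. Without a filter 1 fell and 0 rose, with the replicate block 2 fell and 0 rose, and with TPM 2 fell and 2 rose.

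Slc26a3, the apical chloride and bicarbonate exchanger of surface colonocytes, had 74.2, 75.2 and 74.9 FPKM in int 2 and 36.4, 23.7 and 46.2 FPKM in int 3 (log2 change -1.11, SE 0.22, limma adjusted p = 0.0225). Its int 3 libraries had the order of Car2 and Car4. Slc9a3, the apical sodium and proton exchanger, had the opposite order. It had 9.46, 9.47 and 9.62 FPKM in int 2 and 2.98, 5.12 and 1.13 FPKM in int 3 (log2 change -1.5, SE 0.36, limma adjusted p = 0.0387). Slc26a3 passed in 12 of 17 alternatives and Slc9a3 in 8 of 17. The Slc9a3 call was lost with, among others, pseudocounts of 0.1 and 0.01 (limma adjusted p = 0.0552 and 0.058) and TPM (0.0565).

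Slc9a2, a related exchanger, fell by 0.45 on the log2 scale and Cftr, the apical anion channel, by 0.44 (limma adjusted p = 0.0125 and 0.0333). Slc4a7, a sodium and bicarbonate cotransporter, rose by 0.41 (limma adjusted p = 0.0363). Of 17 alternatives, Slc9a2 passed in 13, Cftr in 10 and Slc4a7 in 11. The anion channel Best2 and the proton pump subunit Atp12a, named after their values were seen, did not pass. In int 3 Best2 had 3.68, 0.463 and 7.39 FPKM, against an int 2 mean of 13.2 FPKM. Atp12a had 22.5, 0.558 and 42.4 FPKM, against an int 2 mean of 54.2 FPKM.

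**Figure D5:**
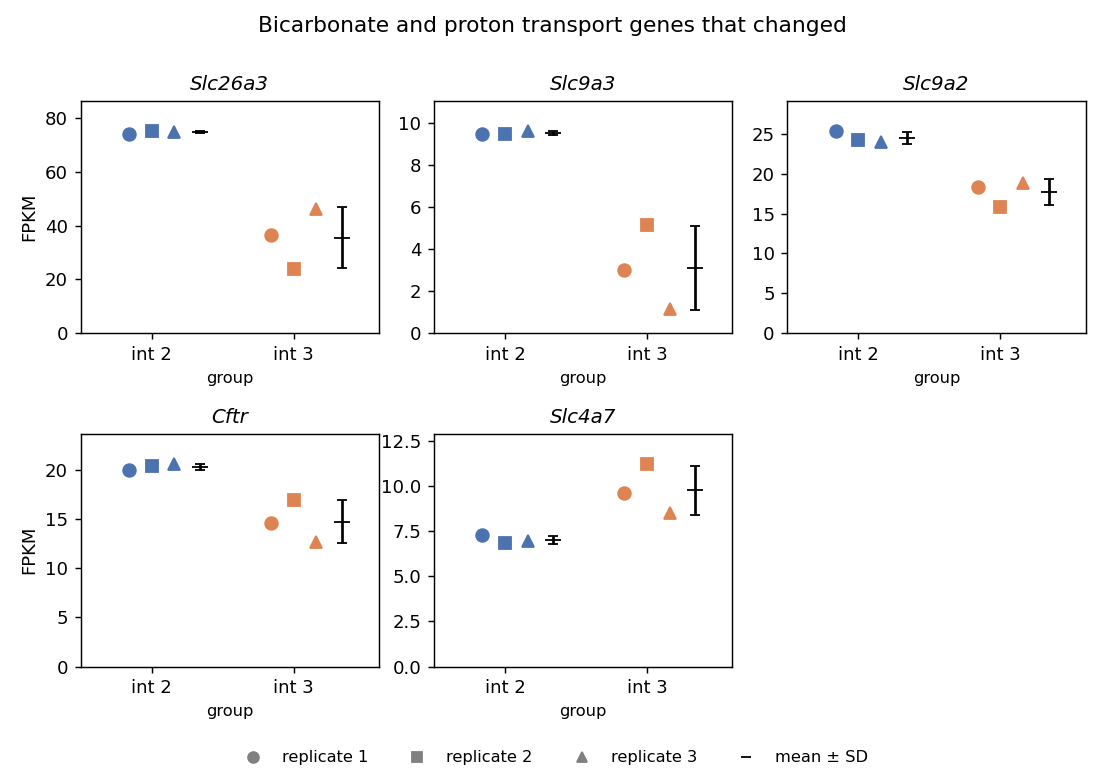
FPKM (linear axes from 0) of 5 bicarbonate and proton transport genes that changed, by library, with the mean ± SD of 3 libraries. Slc26a3, Slc9a3, Slc9a2 and Cftr were lower and Slc4a7 higher in all 3 int 3 libraries.

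Among 12 tested surface colonocyte genes 4 fell (6.7% of all tested genes did) and 0 rose. They were Slc26a3, the phosphate transporter Slc20a1 (log2 change -2.38, limma adjusted p = 0.00403), the cell cycle inhibitor Cdkn1a (-0.40, adjusted p = 0.00525) and the water channel Aqp8 (-0.97, adjusted p = 0.0127). The count that fell was 2 without int 2-1, int 2-2, int 2-3 or int 3-1, 5 without int 3-2 and 6 without int 3-3. Of the same genes 2 rose without int 3-2, 3 without int 3-3, and 1 each with TPM and quantile normalization. Krt20, a keratin of mature surface cells, did not pass (0.22, adjusted p = 0.342). Its log2 change was 0.06 without int 3-2 and 0.36 without int 3-3, where it passed (adjusted p = 0.0257).

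The genes whose profile over the 6 libraries was most like that of each tested member were found by the root mean square difference of centred log2(FPKM + 1) values, among named genes at a mean of 5 FPKM or more. Car2 was most like Id4 and Csad, with differences of 0.0286 and 0.0392, and both fell. Car13 was most like Degs2, Pkp4 and Itgav (0.036, 0.0416 and 0.0442), and all 3 rose. Car1 was most like Nisch, Fam107b and Chordc1 (0.0183, 0.0207 and 0.026).

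Car8 and Car12 shared their 3 nearest genes, Prom1, Ccl9 and Emp1, with differences of 0.0585 to 0.0822 for Car8 and 0.113 to 0.121 for Car12. Car4 was most like Cxcl13, Acpp and Fcgbp (0.0484, 0.0544 and 0.0714), and Car3 was less closely matched by Cyp2c65, Apod and Gcnt3 (0.154, 0.201 and 0.222). None of the genes nearest to Car1, Car3, Car4, Car8 or Car12 passed the test. Pearson r was 0.981 to 0.998 for these pairs, which describes genes chosen for their likeness over the same 6 libraries. The calls of these nearest genes follow largely from that choice and are no separate evidence.

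Neighbours in the genome had different values. In RefSeq GRCm38.p6, Car13, Car1, Car3 and Car2 follow each other with no other protein-coding gene between them. In int 3 these neighbours comprised the member that rose, the member that fell and 2 that did not pass, and their int 2 levels ran from 5.82 FPKM for Car3 to 591 FPKM for Car2.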

How the data were processed

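RNA of 6 mouse large intestine samples was measured. Per the labels' protocols, RNA extraction used TRIzol and libraries came from the VAHTS Universal V10 kit. The authors deposited FPKM values for 35434 genes on build GRCm39, per the submitters' processing notes. The unit was read from the table's name and values. Aligner, counting tool, annotation and strand handling are not given in the sources used here.

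Columns were tied to samples by title. Whole fragments were recovered from the FPKM steps for 99.9% of 12525 tested genes and used for depth, counting error and limma voom. The test was limma 3.58.1 (R 4.3.3; eBayes with trend, two-sided) on log2(FPKM + 1), which understates changes of low genes, for genes reaching 1 FPKM in 3 or more libraries, with a threshold of 0.05. Intervals cover counting error only. The fit was tested on simulated data.

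Alternatives were a smaller pseudocount (0.1 or 0.01), testing every gene above 0, a minimum mean of 5 FPKM, scaling by TPM, by median of ratios, by quantiles or to pan-epithelial genes, the replicate number as a block, a robust prior and leaving out each library, and voom, added after seeing the data. By rule, all members and other family genes are named, with the 3 most alike genes per tested member and Hoxb13, Epcam, Krt20 and Slc26a3. Up to 3 passing genes per list and direction are added, and any passing gene of bicarbonate and proton transport. Outside this rule, Pnpla2, Lep, Adipoq, Ckm, Mylpf, Myh2, Actn3, Myh4, Hoxa13, Hoxd13, Best2 and Atp12a were named with their values known. Some genes that this rule names are not reported here. The members, lists and rules were chosen with earlier results of these data known. Lists not described in the text (goblet, deep crypt secretory, tuft, enteroendocrine, squamous, smooth muscle) had 7, 6, 5, 8, 0 and 7 tested genes, of which 0 rose and 0, 3, 2, 1, 0 and 2 fell. With 1 library left out, those that fell numbered 0 to 1 for goblet, 2 to 3 for deep crypt, 0 to 4 for tuft, 1 to 3 for enteroendocrine and 0 to 5 for smooth muscle genes, and those that rose 0 to 3, 0 to 2, 0, 0 to 1 and 0 to 1. With all libraries, 8.64% of all tested genes rose and 6.7% fell. Python 3.11.15, pandas 2.3.3, scipy 1.17.1 and matplotlib 3.10.9 were used.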

Additional observations from a re-analysis of the deposited data

How the results depend on the processing

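The fall of Car2 was the only member call that passed in every alternative run, and 1 member was lower in each of them. The number of members higher in int 3 was 1 as reported, 0 without a filter and 0 with the replicate block, and 0 to 4 with 1 library left out, the 4 being without int 3-3. Over all genes 1921 were called (1082 higher and 839 lower, 56.3% higher, but 1061 higher and 1128 lower with quantile normalization), 889 with the replicate block and 615 to 4913 with 1 library left out. Among pan-epithelial genes 2 rose after quantile normalization, and adipocyte genes that rose numbered 1 to 4 under the other settings with all libraries. The replicate numbers were not taken as pairs, since no label gives a pairing. Same-numbered libraries had correlations of -0.0147, 0.00407 and -0.0215 of their deviations from the group means, and other pairs had -0.0316 to 0.0445. These correlations, over all 12525 tested genes, were not taken to show whether libraries were paired. Within int 2 the members varied little more than counting error, which was not measured over all tested genes. With 1 library left out the log2 change of Car1 ran from -0.07 (without int 3-2) to 0.23 and that of Car4 from -0.77 to 0.15 (without int 3-2), and with quantile normalization that of Epcam turned to 0.02. The cause was not tested, beyond the fewer libraries in each fit. Library weights from limma did not converge, so that alternative is not reported. Depth limits Car7, with 32 to 55 fragments per library, more than any other member.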
